A study of Mus musculus with 6 samples.

Results

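Histone genes were followed in mouse embryonic stem (ES) cells with and without FLAG-CTCFL. The set was every probe set whose platform gene symbol, or one of several, begins with Hist1h, Hist2h, Hist3h, Hist4h, H1f, H2af, H3f, H2ac, H2bc, H3c or H4c. It held 59 of the 34760 probe sets of the table, of which 22961 carry at least 1 gene symbol. Of the 59, 31 carry 1 symbol and 28 carry several, up to 19, and together they name 69 histone genes. The rule uses names only and no measured value, but it was set with earlier results of these data known. Probe sets with several symbols are annotated to more than 1 gene, and their signal cannot be assigned to any 1 of them. They are therefore given by number or by class, and those of 1 class are not independent of each other. Probe sequences were not at hand, so whether a probe set with 1 symbol also reads near-identical histone copies was not tested.

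CTCFL (BORIS) is the germ cell relative of CTCF, a zinc finger protein of insulators, and is made mainly in the testis. The male ES cells used derive from 46C, which has a Sox1-GFP knock-in and the strain background 129P2/OlaHsd, and both groups were stably transfected. The control group (3 arrays) carries a control vector and the FLAG-CTCFL group (3 arrays) a vector for FLAG-tagged mouse CTCFL; both were kept in 10% serum under 1 µg/ml puromycin. Total RNA was read on Affymetrix Mouse Gene 1.0 ST arrays. The labels describe the cells as cloned but do not say how many clones stand behind each group, so the p-values below measure the spread between these arrays.

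Nucleosomes are built from the core histones H2A, H2B, H3 and H4, and linker histone H1 binds the DNA between them. Replication-dependent histone genes lie in clusters, are transcribed mainly in S phase and give mRNAs that end in a stem-loop and not in a poly(A) tail. Variants outside that programme, such as H3.3, H2A.Z, H2A.X and macroH2A, are made throughout the cycle, and testis variants such as TH2A and TH2B replace the standard forms in male germ cells. In bulk RNA a lower signal in fewer cells and in less RNA per cell cannot be told apart, and cell cycle phases were not sorted.

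The labels were checked first. Ctcfl read 7.70, 7.85 and 7.89 on the control arrays and 11.33, 11.22 and 11.24 on the FLAG-CTCFL arrays, a log2 difference of 3.45 ± 0.06 (SE, limma adjusted p = 2.39e-10). Array medians lay within 8.20 and 8.25, and arrays of a group had a lowest correlation of 0.997 across probe sets, against a highest of 0.986 between groups. Of 10 ES markers, 6 fell and 1 rose, and their mean read 12.42 to 12.45 in controls and 12.15 to 12.29 with FLAG-CTCFL. Of 10 fibroblast markers, 1 rose and 1 fell, and 4 stayed under 7.63 in both group means; 7.63 serves as the background level here, since 95% of 1208 probe sets for odorant and pheromone receptors lie under it. Their mean read 7.75 to 7.79 and 7.76 to 7.82. Of all probe sets with a symbol, 11.8% rose and 16.6% fell at a limma adjusted p under 0.05. The part of these marker shifts in the histone values was not tested.

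Most histone probe sets did not pass the test. Of the 59 probe sets, 7 rose, 3 fell and 49 did not pass the threshold (limma, adjusted p under 0.05 over all 22961 probe sets with a symbol). Among all 22961, 28.4% passed, 11.8% higher and 16.6% lower, so the count of 7 is close to the share of all that rose. The median log2 difference was 0.03 over the histone probe sets and 0.01 over all. All 3 FLAG-CTCFL arrays lay above all 3 controls for 11 histone probe sets and below them for 3, beside 18.3% and 21.9% of all probe sets. Among the 664 probe sets of any kind with a mean log2 signal over 12, the range where many histones lie, 23.0% passed. The count of 7 was 4 without control replicate 2 and 16 with array weights, beside 8.60% and 20.9% of all probe sets. The 3 that fell did so without any 1 array.

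**Figure D1:**
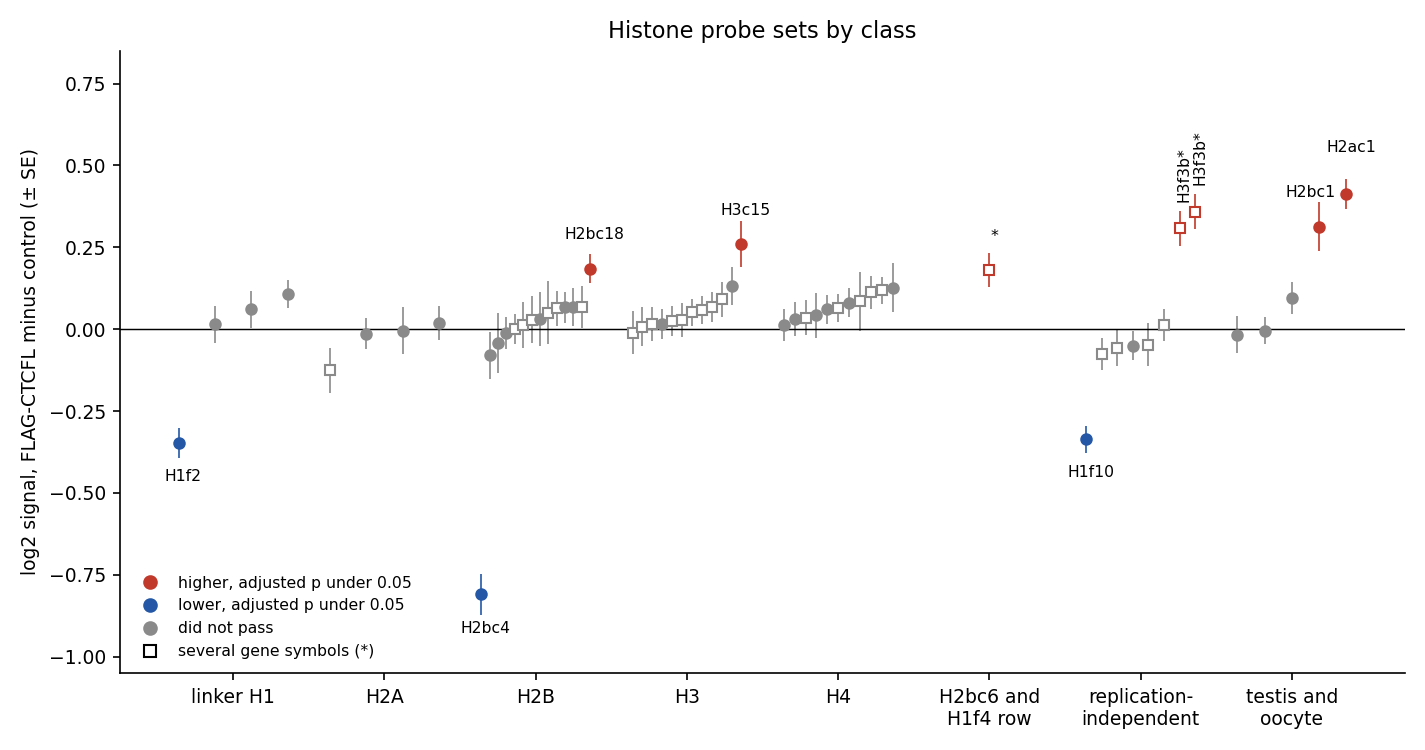
Log2 difference (FLAG-CTCFL minus control, ± SE) of each of the 59 histone probe sets by class; circles carry 1 gene symbol, open squares several, red rose, blue fell and grey did not pass. Most points lie near 0, while H2bc4, H1f2 and H1f10 lie below and H2ac1, H2bc1 and both H3f3b-annotated probe sets above.

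The testis pair H2ac1 and H2bc1 rose together. H2ac1 encodes TH2A and H2bc1 encodes TH2B, the partners of the testis H2A-H2B dimer. H2ac1 read 12.74, 12.69 and 12.79 on the control arrays and 13.19, 13.17 and 13.09 on the FLAG-CTCFL arrays. The groups did not overlap, and the rise was 0.41 ± 0.05 on the log2 scale, or 1.33-fold (limma adjusted p = 5.88e-05). H2bc1 read 11.31, 11.18 and 11.13 against 11.68, 11.38 and 11.50. FLAG-CTCFL replicate 1 was highest and the groups again did not overlap, with a rise of 0.31 ± 0.07, or 1.24-fold (limma adjusted p = 0.00837). Both genes lay above the background level on every control array. Whether their probe sets also read other histone copies was not tested.

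H2ac1 and H2bc1 lie back to back on chromosome 13, and 280 bases separate their annotated starts. The 250 bases of this stretch nearest H2ac1 are shown, because both genes read out from it and both rose. The bases closest to H2bc1 are left out. The sequence runs toward H2ac1 in the RefSeq promoter table (GRCm38.p6, chr13:23934187-23934436, plus strand), and capitals mark the histone promoter letters searched on both strands.

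H2ac1: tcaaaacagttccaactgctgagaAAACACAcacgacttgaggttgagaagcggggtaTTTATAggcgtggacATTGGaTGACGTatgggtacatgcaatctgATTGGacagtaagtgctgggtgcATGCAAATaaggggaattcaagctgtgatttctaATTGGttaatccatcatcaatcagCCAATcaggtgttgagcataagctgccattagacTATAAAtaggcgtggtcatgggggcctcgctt

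On the H2ac1 side stands the TATA motif TATAAA, and on the H2bc1 side the same letters read from the other strand (TTTATA). Between them lies the octamer known from H2B promoters (ATGCAAAT), with 4 copies of CCAAT on either strand and 1 TGACGT. The H1 box letters AAACACA, known from linker histone promoters, lie beyond the TATA letters on the H2bc1 side. Of the 32851 promoter windows in the RefSeq table (from 250 bases before a gene's start to just past it), 1.74% hold the octamer, 37.4% CCAAT, 13.6% TATAAA, 7.51% TGACGT and 7.18% AAACACA on either strand. Of 64 windows found for 63 of the 69 histone genes, the shares were 21.9%, 84.4%, 54.7%, 23.4% and 15.6%. Core letters of the CTCF motif were searched together on both strands as AGGGGGC with AGGTGGC and also AGATGGC with AGAGGGC. They were found in 21.9% of the histone windows and 27.6% of all windows. These are matches of letters and not shown to be bound sites.

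The other germline histones showed smaller values. H1f6, the testis linker histone H1t, read 8.98, 8.84 and 8.89 against 9.06, 8.98 and 8.97, a difference of 0.10 ± 0.05 that did not pass (limma adjusted p = 0.194). The arrays touched, with the lowest FLAG-CTCFL array under the highest control. After quantile normalization H1f6 passed as higher. H1f7, the spermatid linker histone, differed by -0.02 ± 0.06 and H1f8, the oocyte linker histone, stayed under background at 7.47 to 7.55. Among the 5 testis and oocyte probe sets 2 therefore rose, none fell, and the median difference was 0.10. Of all probe sets with a symbol, 11.8% rose and 16.6% fell.

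Markers of later male germ cells were read beside this pair. Of 11 spermatocyte and spermatid markers 2 rose and none fell, beside 11.8% and 16.6% of all probe sets with a symbol. Tex101 rose by 0.75 ± 0.07 (limma adjusted p = 1.04e-05), a larger difference than that of either histone. Ldhc rose from under background on every control array (adjusted p = 0.0157). The list's mean read 7.67 to 7.70 in controls and 7.76 to 7.80 with FLAG-CTCFL, and 5 of the 11 were under background in both groups. The transition protein gene Tnp1 read 7.34, 7.39 and 7.35 against 7.32, 7.38 and 7.35, under background on every array. The part of these markers in the rise of H2ac1 and H2bc1 was not tested.

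Few genes of the replication-dependent clusters passed the test. Of 46 such probe sets, 3 rose, 2 fell and 41 did not pass, with a median difference of 0.04. Of all probe sets with a symbol, 11.8% rose and 16.6% fell. For the 41, differences ran from -0.13 to 0.13, and their 95% intervals reached from -0.28 to 0.29, so smaller changes than that are not excluded for single genes. Among the 24 with 1 symbol 2 rose and 2 fell, and among the 22 with several 1 rose. Under background in both groups were 5 of the 46.

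H4, whose many genes encode the same protein, gave 11 probe sets and none passed in limma, with 1 at an unadjusted p under 0.05. All 11 differences were above 0, from 0.01 to 0.13, with a smallest adjusted p of 0.0583. H4c4, the brightest with 1 symbol, read 13.62, 13.55 and 13.64 against 13.72, 13.66 and 13.68. Its groups did not overlap, yet the 0.08 ± 0.04 did not pass (limma adjusted p = 0.216). H4c3 differed by 0.13 ± 0.07, H4c6 by 0.04 ± 0.07 and H4c14 by 0.01 ± 0.05. After quantile normalization 2 H4 probe sets passed as higher and with array weights 3. Of all probe sets with a symbol, 18.1% and 20.9% passed as higher under these 2 settings. The main test called 11.8% of them higher and 16.6% lower. Of H4, 1 passed after subtraction of array medians, without control array 1 and without FLAG-CTCFL array 2.

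H3 and H2A gave small differences. Of 12 H3 probe sets, 9 of which each read 12 genes, 1 passed. That was H3c15, which read 7.48, 7.45 and 7.55 in controls, under background, and 7.84, 7.57 and 7.85 with FLAG-CTCFL. The groups did not overlap (limma adjusted p = 0.0175), but FLAG-CTCFL array 2 lay under background as well, so no size of the change is given. Leaving out control array 1, control array 2, FLAG-CTCFL array 1 or FLAG-CTCFL array 3 lost the call, at an adjusted p of up to 0.0829. Probe set 10494405, the brightest H3 reading, differed by 0.07 ± 0.05 and did not pass. None of the 4 H2A probe sets passed in limma, none had an unadjusted p under 0.05, and differences ran from -0.13 to 0.02. Probe set 10494386, the lowest of these, passed with array weights and without FLAG-CTCFL array 1. H2ac15 read 12.46, 12.34 and 12.47 against 12.44, 12.38 and 12.50, with full overlap of the groups. Beside these H3 and H2A counts, 11.8% of all probe sets with a symbol rose and 16.6% fell.

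H2B held the largest change of any histone probe set. H2bc4 read 11.55, 11.61 and 11.42 in controls and 10.83, 10.65 and 10.67 with FLAG-CTCFL. Every FLAG-CTCFL array lay well below every control. The fall was -0.81 ± 0.06 on the log2 scale (limma adjusted p = 3.89e-06), a control level 1.75 times that with FLAG-CTCFL. No other H2B probe set fell. H2bc18, of the cluster on chromosome 3, read 10.18, 10.06 and 10.11 against 10.31, 10.30 and 10.31. The groups did not overlap and the rise was 0.18 ± 0.04 (limma adjusted p = 0.00889), but without control replicate 2 the adjusted p was 0.0523. The bright genes H2bc14 (0.03 ± 0.08), H2bc3 (-0.04 ± 0.09) and H2bc9 (0.07 ± 0.06) did not pass, and the 6 H2B probe sets with several symbols lay between 0.00 and 0.07. In all, 1 of 14 rose, 1 fell and 12 did not pass. Among all probe sets with a symbol, 11.8% rose and 16.6% fell. H2bc9 passed after quantile normalization, with array weights and without FLAG-CTCFL array 2, and probe sets 10403948 and 10408070 with array weights.

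Linker histones split by gene. H1f2, which encodes H1.2, read 9.74, 9.70 and 9.63 in controls and 9.35, 9.37 and 9.31 with FLAG-CTCFL. The groups stood apart, and the fall was -0.35 ± 0.04 (limma adjusted p = 0.000162), a control level 1.27 times that with FLAG-CTCFL. H1f5 (H1.5) read 12.36, 12.23 and 12.27 against 12.45, 12.27 and 12.32, and H1f1 (H1.1) 12.31, 12.16 and 12.16 against 12.30, 12.15 and 12.22. Their groups overlapped and their differences of 0.06 ± 0.06 and 0.01 ± 0.06 did not pass. H1f3 (H1.3) lay under background at 7.39 to 7.54. Probe set 10408212, which reads H2bc6 and H1f4 together, differed by 0.18 ± 0.05 (limma adjusted p = 0.0240). Leaving out control array 2, control array 3, FLAG-CTCFL array 1 or FLAG-CTCFL array 3 lost this call, at an adjusted p of up to 0.0910.

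The promoters of H1f2, which fell, and H1f5, which did not pass, are set side by side with that of the replication-independent H1f10, which fell as well. They are the 150 bases before each start on the gene's strand in RefSeq GRCm38.p6, for H1f2 chr13:23738657-23738806, for H1f5 chr13:21780626-21780775 (minus strand) and for H1f10 chr6:87981483-87981632 (minus strand). Capitals mark the same letters as above.

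H1f2: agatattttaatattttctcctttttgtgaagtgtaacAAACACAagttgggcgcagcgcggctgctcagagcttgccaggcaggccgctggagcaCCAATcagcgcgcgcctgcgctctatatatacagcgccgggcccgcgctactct

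H1f5: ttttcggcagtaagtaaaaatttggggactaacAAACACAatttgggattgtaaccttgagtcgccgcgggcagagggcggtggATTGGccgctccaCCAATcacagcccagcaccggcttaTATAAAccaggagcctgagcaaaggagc

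H1f10: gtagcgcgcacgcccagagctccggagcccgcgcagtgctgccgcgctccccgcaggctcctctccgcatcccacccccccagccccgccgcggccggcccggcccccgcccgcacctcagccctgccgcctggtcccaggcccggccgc

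H1f2 and H1f5 both hold the H1 box letters AAACACA and a CCAAT, and H1f5 holds TATAAA as well. The H1f2 stretch holds the TATA-like letters tatatata, which the exact search for TATAAA does not mark. In all, 4 of 5 windows of the replication-dependent H1 genes hold AAACACA. H1f10 holds none of the letters in these 150 bases. The octamer was found in 6 of 14 H2B windows, 5 of 16 H2A windows and none of the H3 or H4 windows. H2bc4, H2bc21, H3c1, H3c7, H4c14 and H2af-ps2 are not matched in the table.

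H1f10 encodes H1x, a linker histone made throughout the cell cycle. It read 11.07, 11.06 and 11.00 in controls and 10.70, 10.71 and 10.71 with FLAG-CTCFL. The groups were far apart relative to their spread, and the fall was -0.34 ± 0.04 (limma adjusted p = 0.000111), a control level 1.26 times that with FLAG-CTCFL. The nearest non-histone gene on 1 side, Hmces, a shield of abasic sites in single-stranded DNA, fell by 0.57 (limma adjusted p = 0.00156), while Gm5577 on the other side differed by 0.06 and did not pass. Of 10 non-histone neighbours 1 rose and 2 fell, beside 11.8% and 16.6% of all probe sets with a symbol.

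H3.3, the replacement H3 variant, is encoded by H3f3a and H3f3b, and only probe sets annotated to H3f3b passed. Both probe sets annotated to H3f3b and the pseudogene Gm6485 rose, and they may read the same RNA. Probe set 10393058 read 12.26, 12.25 and 12.18 in controls and 12.69, 12.53 and 12.54 with FLAG-CTCFL, a rise of 0.36 ± 0.05 (limma adjusted p = 0.000372). Probe set 10500896 read 12.60, 12.53 and 12.50 against 12.94, 12.75 and 12.86, a rise of 0.31 ± 0.05 (adjusted p = 0.00128). In both, FLAG-CTCFL replicate 1 was highest and the groups did not overlap. None of the 4 probe sets annotated to H3f3a and Gm12657 passed in limma, none had an unadjusted p under 0.05, and they lay between -0.08 and 0.01. The probe set with H3f3a alone stayed under background. A test between the H3f3b and H3f3a readings was not run.

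The H3f3b promoter is shown because its letters resemble those of the clustered genes (RefSeq GRCm38.p6, chr11:116024505-116024654, minus strand).

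H3f3b: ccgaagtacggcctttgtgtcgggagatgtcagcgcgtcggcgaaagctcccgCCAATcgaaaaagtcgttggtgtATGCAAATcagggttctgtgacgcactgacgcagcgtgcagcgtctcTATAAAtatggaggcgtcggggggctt

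It holds CCAAT, the octamer ATGCAAAT and TATAAA in the 150 bases before the start. Of the 3 windows of replication-independent genes, 1 holds the octamer.

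**Figure D2:**
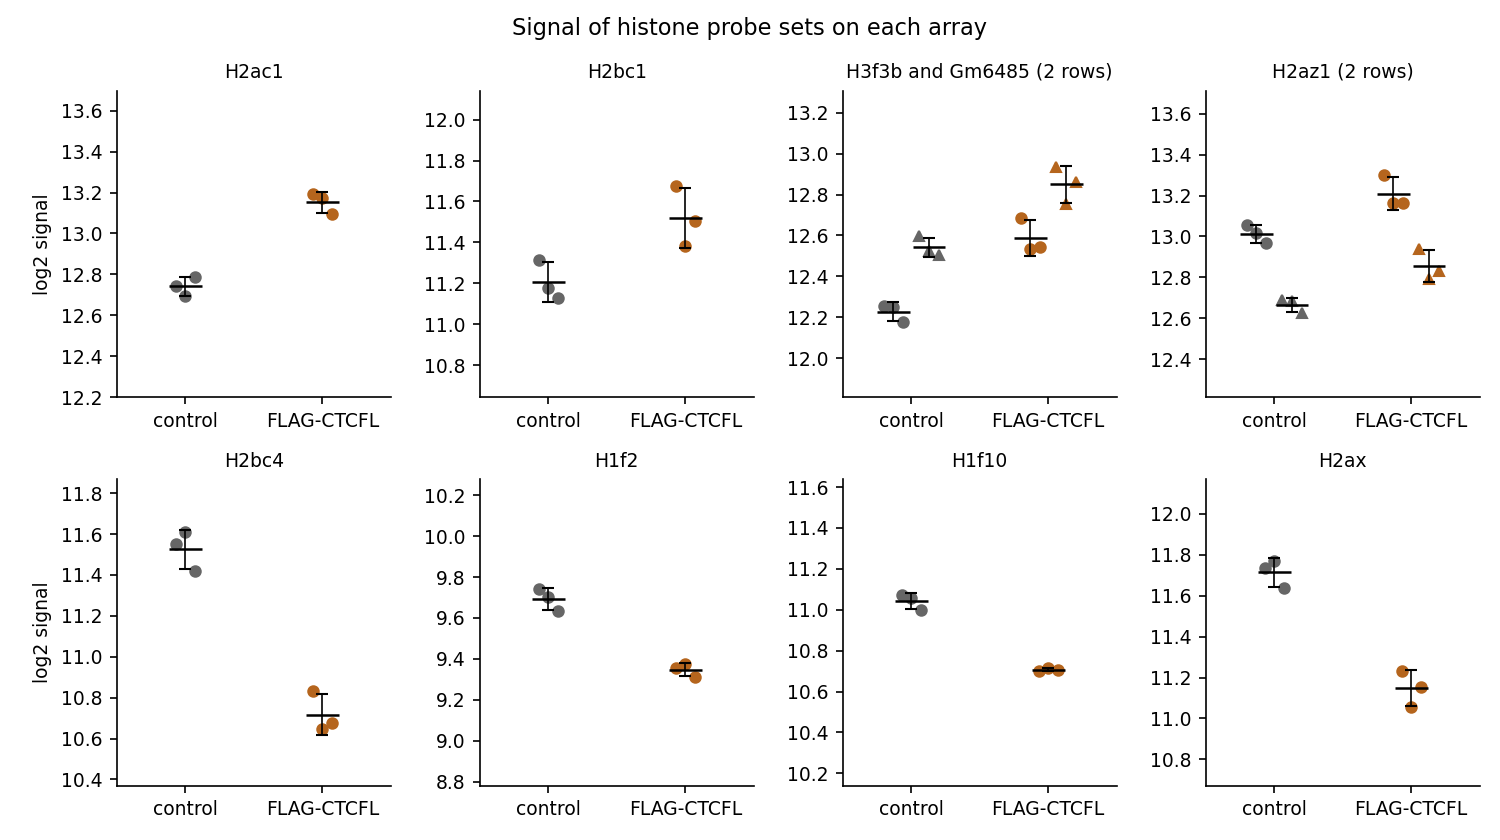
Log2 signal of single histone probe sets on each of the 3 control and 3 FLAG-CTCFL arrays, with the mean and SD of each group; every panel spans the same number of log2 units. H2ac1, H2bc1, H2az1 and both probe sets annotated to H3f3b and Gm6485 are higher with FLAG-CTCFL, and H2bc4, H1f2, H1f10 and H2ax lower, with no overlap of the groups in any panel.

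Some variants carry current symbols that the rule does not take, although an older symbol of theirs begins as it requires. These 14 probe sets, with Cenpa added, were looked up after names were seen and are not counted among the 59. H2ax, whose H2A.X is phosphorylated at DNA breaks, read 11.74, 11.77 and 11.64 in controls and 11.23, 11.06 and 11.15 with FLAG-CTCFL. It fell by 0.57 ± 0.06 (limma adjusted p = 2.30e-05) with no overlap. Macroh2a1, a variant with a large non-histone domain found on the inactive X, read 11.31, 11.43 and 11.36 against 10.58, 10.62 and 10.80. It fell by 0.70 ± 0.06 (adjusted p = 9.37e-06), also with no overlap.

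H2A.Z, found at promoters and enhancers, is encoded by H2az1 and H2az2. The probe sets of H2az1 rose by 0.20 ± 0.05 and 0.19 ± 0.05 (limma adjusted p = 0.0135 and 0.0141), and both calls were lost without control replicate 3 (0.0639 and 0.0651). H2az2 differed by -0.16 ± 0.05 and did not pass (adjusted p = 0.0530), and Macroh2a2 by 0.20 ± 0.07 (adjusted p = 0.0732). Cenpa, the centromeric H3, differed by -0.04 ± 0.06, and H2aj, H2aw and H4f16 also did not pass.

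Genes next to the histones that changed were read too, 5 non-histone genes on each side. Around H2ac1 and H2bc1, 2 of 10 rose and 1 fell, with a median difference of 0.01. Around H2bc4 and H1f2 the counts were 2 and 1, with a median of 0.02. Around H2bc18 and H3c15, 2 rose and none fell. Around H2ax 3 rose and none fell, around Macroh2a1 none rose and 2 fell, and around H2az1 none rose and 3 fell. Over all probe sets with a symbol, 11.8% rose and 16.6% fell.

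Bright histone probe sets shared a pattern across arrays. Over the 28 replication-dependent probe sets above 10 that did not pass, the mean deviation from the control mean was 0.05, -0.05 and -0.01 on the control arrays and 0.12, -0.06 and 0.05 on the FLAG-CTCFL arrays. FLAG-CTCFL replicate 1 was the highest array in 22 of the 28 and FLAG-CTCFL replicate 2 the lowest in 15. Many of the 28 carry several symbols and are not independent of each other, and no such counts are given for all probe sets. Over all 664 probe sets above 12, the deviations were 0.02, -0.0015 and -0.02 on the control arrays and 0.07, -0.09 and -0.0088 on the FLAG-CTCFL arrays. FLAG-CTCFL replicate 1 was thus the highest and replicate 2 the lowest there too, while FLAG-CTCFL replicate 3 lay below 0 and not above it as in the histones, and control replicates 1 and 2 lay nearer to 0. The sets were not chosen alike, since the 664 lie above 12, take in bright histones and include 153 that passed. With those that passed kept, the 30 replication-dependent probe sets above 10 had a mean of 0.02 on FLAG-CTCFL replicate 3. With all arrays set equal on those 664, the histone counts were again 7 higher and 3 lower.

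**Figure D3:**
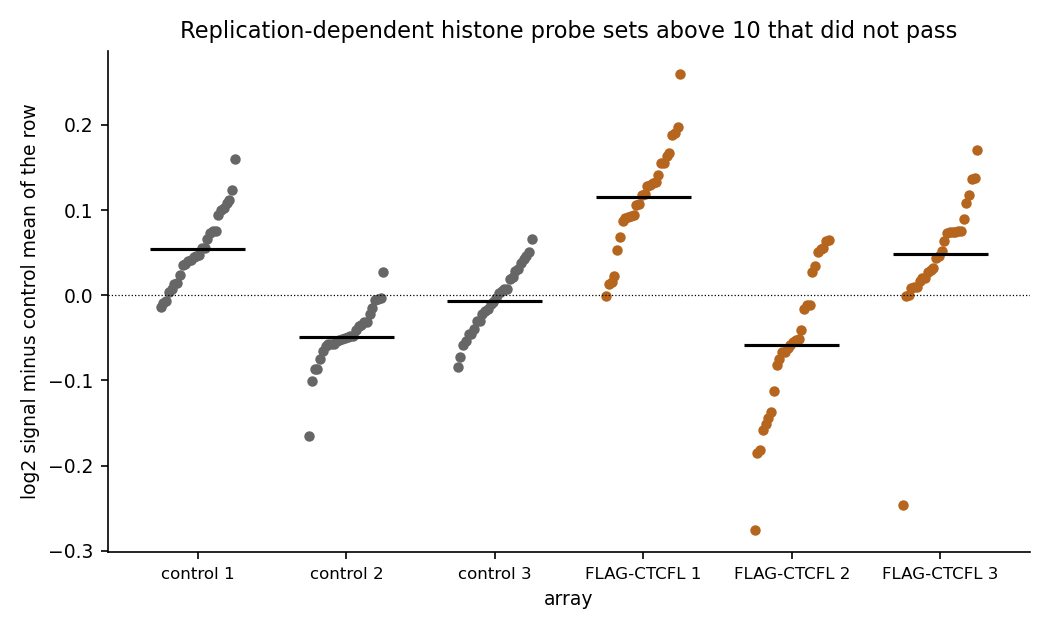
Log2 signal minus the control mean of the same probe set for 28 replication-dependent histone probe sets above 10 that did not pass, on each of 6 arrays; points are probe sets and bars their means. The mean is highest on FLAG-CTCFL replicate 1 (0.12) and lowest on FLAG-CTCFL replicate 2 (-0.06).

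Genes that transcribe, process and degrade histone mRNA changed in part. Of 19 measured of 21 listed, 5 rose and 2 fell, with a median of 0.05; over all probe sets with a symbol, 11.8% rose and 16.6% fell. Upf1, a helicase needed for histone mRNA decay, rose by 0.25 ± 0.05 (limma adjusted p = 0.00255), and Lsm11, a U7 snRNP protein of 3' end cutting, by 0.19 ± 0.05 (adjusted p = 0.00791). Zfp473, a partner of U7 snRNP, fell by 0.31 ± 0.04 (adjusted p = 0.000243). Slbp, which binds the stem-loop, read 10.31, 10.38 and 10.22 against 10.61, 10.39 and 10.42; 0.18 ± 0.06 did not pass (adjusted p = 0.0666). Srrt (0.27), Hinfp (0.17) and Sympk (0.15) rose and Mtpap (-0.15) fell, and each of these 4 calls was lost under 4 to 10 of 15 alternatives. Leaving out control array 2, control array 3 or FLAG-CTCFL array 3 lost all 4, and control array 1 or FLAG-CTCFL array 1 those of Hinfp and Sympk.

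Among histone chaperones and importers a few single differences were larger, but the list median was not. Of 27 measured of 29 listed, 6 rose and 4 fell, with a median of 0.05. Supt16, the large subunit of FACT, read 11.83, 12.02 and 11.87 in controls and 11.30, 11.09 and 11.23 with FLAG-CTCFL, a fall of 0.70 ± 0.06 (limma adjusted p = 1.39e-05). Ipo4, which carries H3 and H4 into the nucleus, read 10.71, 10.79 and 10.69 against 10.19, 10.06 and 10.07, a fall of 0.62 ± 0.05 (adjusted p = 4.59e-06). Neither overlapped between groups. Both lie on chromosome 14. Of the 10 neighbours of Supt16 8 fell and none rose, with a median of -0.46. Of those of Ipo4 6 fell, with a median of -0.50, and 1 rose, Rec8 next to it, by 0.42 (limma adjusted p = 1.88e-05). Over all probe sets with a symbol, 16.6% fell and 11.8% rose.

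Atrx, which deposits H3.3 with Daxx, read 10.78, 10.85 and 10.75 against 10.39, 10.07 and 10.16, a fall of 0.59 ± 0.07 (limma adjusted p = 0.000119). Of its 10 neighbours on the X 5 fell and none rose, with a median of -0.16. Among all probe sets with a symbol, 16.6% fell and 11.8% rose. Of the genes next to Atrx, Magt1 fell by 0.79 and Fgf16, at 0.04, did not pass. On the rising side stood the H3-H4 chaperones Asf1b (0.33 ± 0.05, adjusted p = 0.000223), Spty2d1 (0.38 ± 0.05, 0.000274) and Dnajc9 (0.34 ± 0.05, 0.000653) and the H2A.Z remover Anp32e (0.31 ± 0.05, 0.00138). Nap1l1 (0.14), Cabin1 (0.14) and Chaf1b (-0.15) passed with smaller differences, and these calls were lost under 6 to 10 of 15 alternatives. Leaving out control array 2 or 3 lost all 3, FLAG-CTCFL array 3 those of Cabin1 and Chaf1b, and control array 1 or FLAG-CTCFL array 1 those of Cabin1 and Nap1l1.

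Over both lists 11 of 46 genes rose and 6 fell, beside 11.8% and 16.6% of all probe sets with a symbol. The count of 11 became 6 on leaving out control array 2, and 7 on leaving out any other array but FLAG-CTCFL array 2. S phase genes were read beside them because histone mRNA follows that phase. Of 21 measured of 22 listed, Cdc25a (0.35) and Ccne2 (0.16) rose and Cdk2 (-0.43), Mcm6 (-0.29), Uhrf1 (-0.21), E2f1 (-0.18) and Tk1 (-0.16) fell, with a median of -0.01. The call of Ccne2 was lost on leaving out any array but FLAG-CTCFL array 2, and that of Tk1 on leaving out control array 1. Quantile normalization ended the calls of E2f1 (-0.11, limma adjusted p = 0.0760) and Tk1 (-0.10, adjusted p = 0.0716), and so did setting arrays equal on bright probe sets (adjusted p = 0.0570 and 0.0850). The part of the cell cycle in the histone values was not tested.

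**Figure D4:**
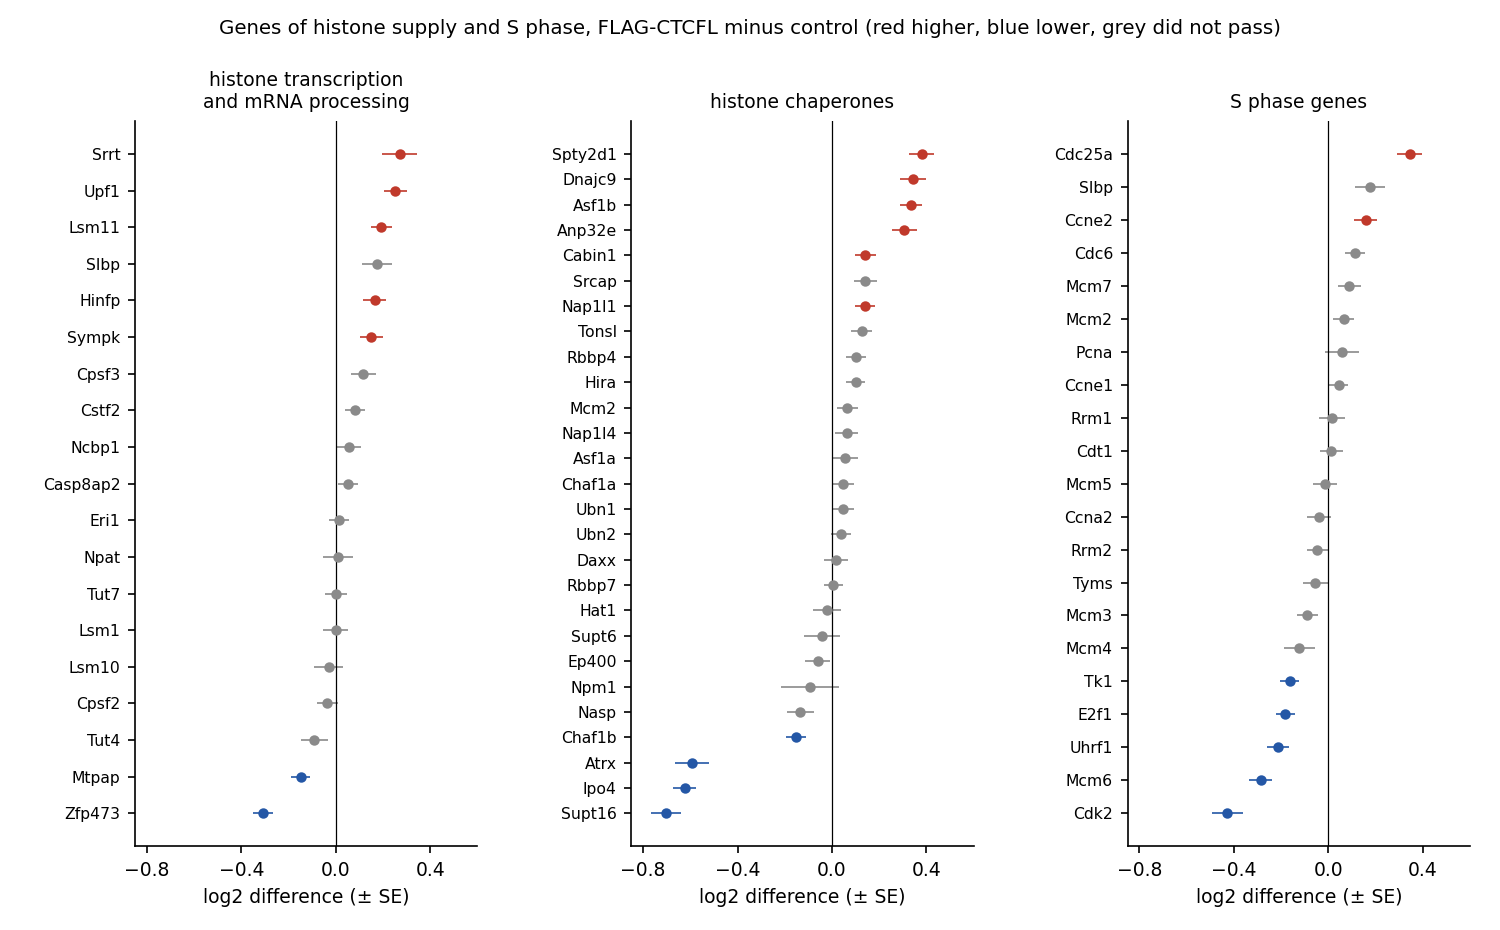
Log2 difference (FLAG-CTCFL minus control, ± SE) for genes of histone mRNA metabolism, histone chaperones and S phase; red rose, blue fell and grey did not pass. Supt16, Ipo4 and Atrx are the lowest of the chaperones and Spty2d1, Dnajc9 and Asf1b the highest.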

How the data were processed

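The authors deposited 1 log2 signal per probe set and array; how it was background-corrected, summarised or normalized is not given in the sources used here, and the log2 scale was read from the range of 5.73 to 14.56. Per the labels' protocols, 200 ng of total RNA was labelled with the WT Terminal Labeling kit.

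Probe sets were named from the platform annotation (21640 with 1 symbol, 1321 with several, 11799 with none), and all 31 histone probe sets with 1 symbol matched the GRCm38.p6 gene table by Entrez ID. The test was the moderated one of limma 3.58.1 (R 4.3.3; lmFit, then eBayes; two-sided, Benjamini-Hochberg over the 22961 probe sets with a symbol, threshold 0.05), with no filter on dim probe sets. Differences are FLAG-CTCFL minus control, with the moderated SE. The fit was tested on simulated data. Figures used Python 3.11.15 and matplotlib 3.10.9.

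Named in each class were all probe sets past the threshold and up to 4 of the brightest with 1 symbol; of other lists, up to 6 per direction past the threshold. Hmces, Gm5577, Magt1, Fgf16 and Rec8 are the genes next to a named one, and Tnp1, Cenpa and the genes found by older symbols were named after their values were seen. The members, lists and tests were chosen with earlier results of these data known. For a gene of the other lists with several probe sets, the brightest was used.

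Alternatives were the replicate block, quantile normalization, array medians, a signal filter, all probe sets, 1 probe set per gene, array weights, a robust variance trend and each array left out. Setting arrays equal on bright probe sets was chosen after seeing the data. The number of arrays limits the precision.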

Additional observations from a re-analysis of the deposited data

How the results depend on the processing

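Over the alternatives run, H2ac1, H2bc1, H2bc4, H1f2, H1f10, both probe sets annotated to H3f3b and Gm6485, H2ax and Macroh2a1 kept their direction and passed each time; the largest adjusted p among them was 0.0416, for H2bc1. The count of histone probe sets that rose, 7, was 11 after quantile normalization, 4 with 1 probe set per gene (which leaves out those with several symbols) and 16 with array weights; leaving out 1 array gave 4 to 10. The count that fell, 3, was 3 or 4 throughout. Of the genes of histone supply, 11 rose; the count was 23 after quantile normalization, 6 with all probe sets tested, 18 with array weights, and 6 to 14 leaving out 1 array. Except where the alternative's construction shows it, the cause was not tested. Over all probe sets of each setting, 11.8% rose in the main test, 18.1% after quantile normalization and 20.9% with array weights. That share was 12.5% with 1 probe set per gene and 7.51% with all probe sets tested. Leaving out 1 array gave 8.60% to 13.9%. Quantile normalization moved the share of all calls that were higher from 41.5% to 53.6%. With the replicate number as a block, 7 histone probe sets rose and 3 fell. Samples with the same number correlated at -0.19 to 0.15 in their deviations from the group means, and those with different numbers at -0.35 to 0.34. With 3 arrays in a group the deviations cancel within it, so these values cannot decide whether the numbers pair the arrays. Among the results and genes recomputed, which leave out Tex101, Ldhc and single probe sets that did not pass, none changed direction. Of the class medians, that of the replication-independent probe sets went from -0.05 to 0.01 after quantile normalization, and that of H2A from -0.0092 to 0.00039 with arrays set equal on bright probe sets. For probe sets under background, the arrays give a bound on the level at most.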
